A study of Mus musculus with 12 samples.

Results

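The genes that carry fat into muscle fibers, those that burn it, and the regulators that set their expression were followed in mouse gastrocnemius muscle. The mice differed in the induction of the human transcription factor DUX4. The paper reports graded DUX4 protein in tibialis anterior, whereas its DUX4 mRNA values in gastrocnemius did not differ significantly between the models. DUX4 levels are not given here. The set held 10 genes, chosen by name from the 37748 genes of the table: the regulators Ppargc1a, Esrra and Ppara, the uptake genes Cd36, Fabp3 and Lpl, and the oxidation genes Cpt1b, Acadm, Acadl and Hadha. All 10 passed the filter on low counts, which kept 16679 genes. RNA-seq libraries were made from 12 mice of 13 weeks, 3 per group. Controls had only ACTA1-MCM, in which the skeletal muscle ACTA1 promoter drives a tamoxifen (TMX) inducible Cre, and no TMX is recorded for them. The paper treated ACTA1-MCM controls of other assays with TMX and does not say whether the RNA-seq controls had it. FLExD/+ mice had only FLExDUX4, a DUX4 transgene that Cre inverts to induce its expression, again with no TMX recorded. The paper describes low, leaky DUX4 expression in FLExD/+ mice as well, but it detected no DUX4 protein in their skeletal muscle. A GEO label also lists these mice under mild pathology, and bi-transgenic mice without TMX were not analysed here. The moderate and severe mice carried both transgenes and were taken 9 days after the first injection of TMX, with 1 injection of 5 mg/kg for the moderate and 2 of 10 mg/kg for the severe model. TMX and DUX4 induction came together in these mice. Against controls that had no TMX, the effects of the drug and of DUX4 cannot be told apart. The paper reports low mosaic DUX4 in bi-transgenic mice even before TMX, through leaky Cre. The moderate and severe models thus had some DUX4 before the injections, and its part in the differences was not tested.

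Lipoprotein lipase, made by Lpl, frees fatty acids from circulating triglyceride, the membrane protein CD36 helps take them up, and FABP3 carries them through the cytosol. The carnitine palmitoyltransferase CPT1B passes long-chain fatty acids toward the mitochondrial matrix, where the dehydrogenases ACADL and ACADM and the trifunctional protein, whose alpha subunit is made by Hadha, shorten them by beta-oxidation. The coactivator PGC-1 alpha (Ppargc1a) works with the nuclear receptors ERR alpha (Esrra) and PPAR alpha (Ppara) to raise transcription of such genes, and oxidative muscle fibers use them most.

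Libraries held 23796902 to 29136403 estimated counts, so that 3 counts correspond to 0.0676 to 0.155 CPM. CPM are counts divided by library size, here after the sizes were scaled by trimmed mean of M-values (TMM). A gene was called where edgeR's quasi-likelihood test gave a Benjamini-Hochberg adjusted p under 0.05 over all genes tested and the log2 fold change was 0.5 or more in size. Esr1, whose reads can come from the MerCreMer transgene, lay at 715, 422 and 819 CPM in the controls, 29.7, 27.5 and 37.9 in the FLExD/+, 95.9, 113 and 124 in the moderate and 35.2, 37.4 and 35.6 in the severe mice. By CPM the severe mice, which carry the transgene, overlapped the FLExD/+ mice, which do not. In TPM, the share of all transcripts, which accounts for transcript length, Esr1 stood at 38.6 to 45.1 in the severe mice against 4.87 to 8.78 in the FLExD/+ mice. The summed level of 10 adult myofiber genes went from 156231 to 205897 CPM in the controls to 66479 to 80398 in the moderate and 9927 to 18136 in the severe mice. Macrophage genes (9 genes, 86.6 to 109 CPM in the controls) summed to 972 to 1053 CPM in the severe mice, and genes of regenerating muscle (8 genes, 21.2 to 28.9 CPM) to 1284 to 1828. In bulk muscle, fewer cells of a type and less RNA per cell cannot be told apart.

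The muscle-enriched carnitine transferase Cpt1b, the lipase Lpl and the regulator Ppara were lower in both models, while Ppargc1a, the transporter Cd36 and Acadl, a dehydrogenase of long chains, were not called different from the controls in either. In the moderate mice 4 of the 10 genes were called lower than in the controls (Ppara, Lpl, Cpt1b and Hadha) and none higher, where 17.0% of all genes tested were called lower and 24.4% higher. In the severe mice 7 were called lower, the same 4 with Esrra, Fabp3 and Acadm, and none higher, against 27.9% lower and 32.9% higher over all genes. The 10 genes had a median log2 fold change of -0.19 for moderate and -1.28 for severe mice, beside 0.04 and 0.08 over all genes tested. Between the models, 7 genes were lower in the severe mice, with 18.8% of all genes called lower, and none was higher, with 17.6% called higher. The mice of the lower group lay wholly below the other group in 4 genes for moderate against control (28.5% of all genes tested), in 8 for severe against control (34.9%) and in 9 for severe against moderate (30.8%), and in none the other way round. Without control mouse 1246, which stood apart as described below, moderate mice had 3 genes lower and 1 higher and severe mice 6 lower. With library size alone, which leaves out the TMM factors, Cpt1b alone stayed called lower in the moderate mice, and Cpt1b and Ppara in the severe, and 4 and 3 genes were then called higher. Under that scaling 4.51% of all genes were called lower and 52.5% higher in the moderate mice, and 6.42% lower and 75.4% higher in the severe.

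**Figure D1:**
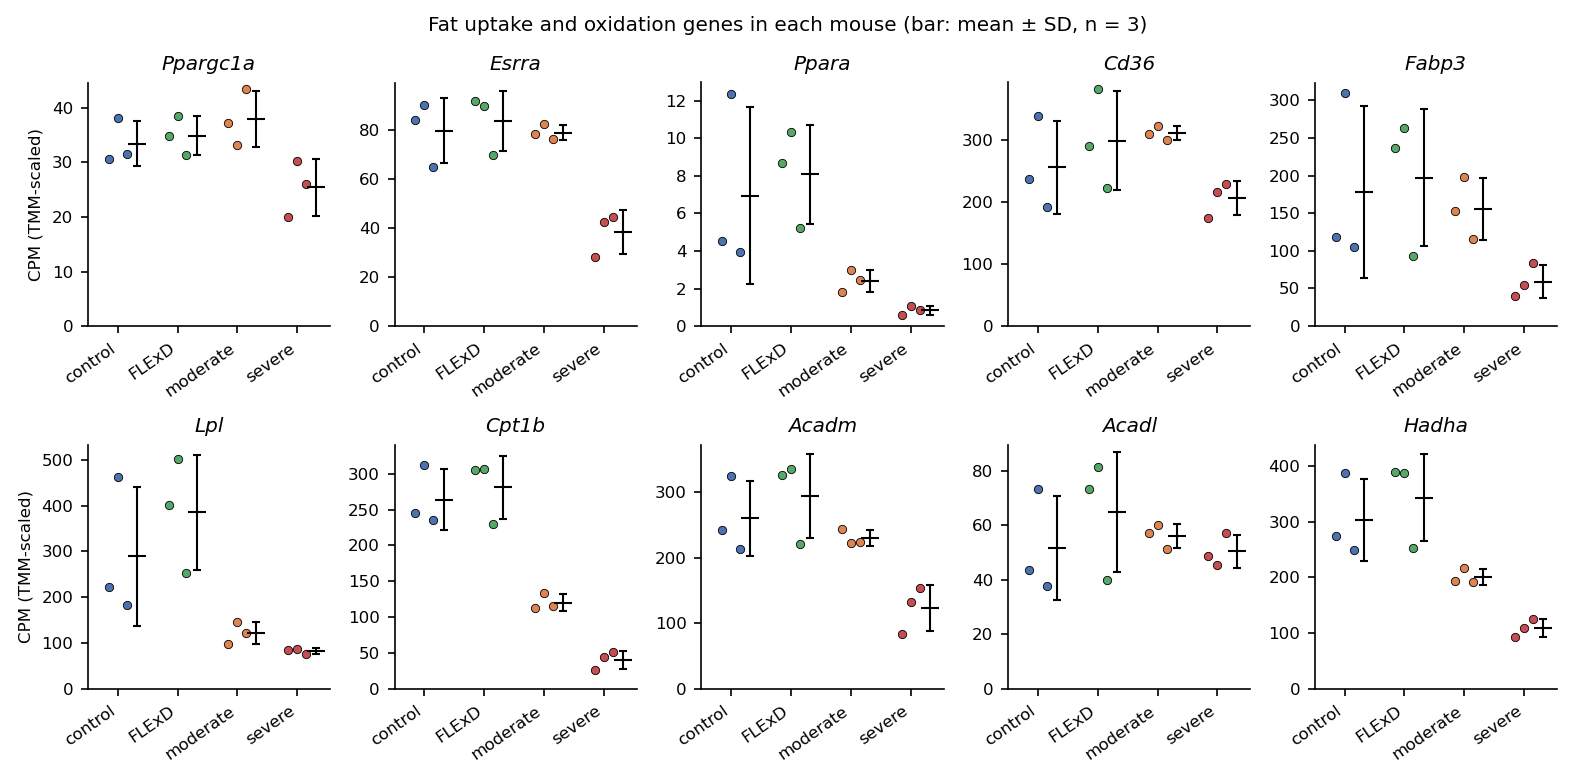
Level of each of the 10 genes in each mouse, in CPM on TMM-scaled library sizes, by group. Points are mice in the order of their numbers, bars are mean ± SD of 3 mice; Cpt1b, Hadha and Esrra were lowest in the severe mice, while Acadl overlapped in all groups.

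Among the regulators, the coactivator gene Ppargc1a (chr5:51454250-51567726, minus strand, GRCm38) was measured at 30.7, 38.1 and 31.5 in the control, 34.9, 38.4 and 31.3 in the FLExD/+, 37.2, 33.2 and 43.5 in the moderate and 19.9, 30.2 and 26.1 in the severe mice (CPM). The moderate mice overlapped the controls, whereas the 3 severe mice lay just below the lowest control. The log2 fold change was 0.18 ± 0.15 (adjusted p = 0.318) in the moderate and -0.40 ± 0.15 (adjusted p = 0.0279) in the severe mice by edgeR, so that the severe difference passed the p threshold but was under the fold threshold. A single mouse decided this, since without severe mouse 1066 the value was -0.54 (adjusted p = 0.00615) and called lower, and without severe mouse 1047 it was -0.24 (adjusted p = 0.117). Severe mice were lower than moderate mice by -0.58 ± 0.15 (adjusted p = 0.005) with the TMM factors, a call that was lost on the fold threshold without moderate mouse 1331 or severe mouse 1047 and turned to 0.11 with library size alone. Its deposited TPM ran the other way, at 6.92, 8.35 and 6.37 in the control, 7.57, 8.31 and 7.42 in the FLExD/+, 10.9, 15.1 and 12.6 in the moderate and 12.02, 19.1 and 12.8 in the severe mice.

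Esrra (chr19:6910977-6921813, minus strand), which codes for the orphan nuclear receptor ERR alpha, lay at 84.4, 90.4 and 64.9 in the control, 91.9, 90.1 and 69.8 in the FLExD/+, 78.4, 82.5 and 76.5 in the moderate and 28.2, 42.6 and 44.4 in the severe mice (CPM). The moderate mice fell inside the range of the controls and the severe mice lay below every other mouse. With TMM, Esrra was not called in the moderate mice, at -0.01 ± 0.17 (adjusted p = 0.953), and lower in the severe mice, at -1.06 ± 0.17 (adjusted p = 7.94e-05) by edgeR, whereas library size alone gave 0.24 (adjusted p = 0.131) in the severe mice. Severe was also lower than moderate, at -1.04 ± 0.17 (adjusted p = 0.000222), and this sign held with library size alone at -0.35 (adjusted p = 0.0375). Of the other receptors of the family, Esrrb was called lower in the severe mice, at -1.79 ± 0.62 (adjusted p = 0.0201), whereas Esrrg, with 15.1, 26.1 and 8.58 CPM in the controls and 6.696, 9.08 and 9.61 in the severe mice, was not, at -0.97 ± 0.42 (adjusted p = 0.0602). The call of Esrrb was lost without control mouse 1246, at -1.05 (adjusted p = 0.162), without severe mouse 1047, at -1.63 (adjusted p = 0.0765), and with library size alone, at -0.49 (adjusted p = 0.444), while Esrrg was called lower without control mouse 1349, at -1.304 (adjusted p = 0.0101). The difference between both genes was not tested.

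Ppara (chr15:85734983-85802819, plus strand), the fatty acid receptor that turns on oxidation genes, was the scarcest of the set, at 4.51, 12.4 and 3.93 in the control, 8.71, 10.4 and 5.21 in the FLExD/+, 1.83, 3.000 and 2.45 in the moderate and 0.586, 1.06 and 0.845 in the severe mice (CPM). Every moderate mouse lay below every control and FLExD/+ mouse, and every severe mouse below every moderate one. The fall in the moderate mice was -1.52 ± 0.43 (adjusted p = 0.0108) and that in the severe mice -3.06 ± 0.47 (adjusted p = 9.96e-05) by edgeR. Control mouse 1246 was the highest, and without it the values were -0.83 (adjusted p = 0.0348) and -2.36 (adjusted p = 2.02e-05). The deposited values behind it were 26 to 257 counts per library, all above the floor of 3 counts. With library size alone Ppara was still called lower in the severe mice, at -1.77 (adjusted p = 0.00213), but not in the moderate, at -0.92 (adjusted p = 0.0609). The difference between the models, -1.54 ± 0.49 (adjusted p = 0.0209), was lost when moderate mouse 1308 or 1331 or severe mouse 1047 or 1079 was left out. The receptors of the same family took separate courses: with TMM Ppard fell in both models, at -0.65 and -1.10, the latter turning to 0.21 with library size alone and the former under the fold threshold without moderate mouse 1236 (-0.48), while Pparg rose in the moderate mice, at 0.81 ± 0.25 (adjusted p = 0.015), and was at 0.15 ± 0.25 (adjusted p = 0.606) in the severe. The call of Pparg was lost without any 1 of control mice 1246 and 1349 and moderate mouse 1308, with values down to 0.65 (adjusted p = 0.0632).

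Among the uptake genes, Lpl (chr8:68880491-68907448, plus strand) was measured at 223, 463 and 182 in the control, 401, 502 and 253 in the FLExD/+, 98.1, 145 and 122 in the moderate and 85.3, 86.1 and 74.6 in the severe mice (CPM). All moderate and severe mice lay below all controls and FLExD/+ mice. Control mouse 1246 lay well above the other controls. Lpl changed by -1.25 ± 0.34 (adjusted p = 0.0103) in the moderate and -1.82 ± 0.35 (adjusted p = 0.000711) in the severe mice by edgeR. The difference between the models was -0.57 ± 0.34 (adjusted p = 0.187) and was not called, although the groups did not overlap. With library size alone the sign against the controls stayed, at -0.64 and -0.51, and neither was called. Gpihbp1, which anchors the lipase on capillary endothelium, was at -0.23 ± 0.23 (adjusted p = 0.422) in the moderate mice and fell in the severe, at -1.37 ± 0.24 (adjusted p = 0.000202), with TMM. Under library size alone its severe value was -0.07 and not called. Angptl4, which codes for an inhibitor of the lipase, was higher in every mouse of both models, going from 1.19, 0.819 and 1.66 CPM in the controls to 10.1, 6.48 and 4.67 in the moderate and 33.8, 33.9 and 25.6 in the severe mice. Its log2 fold changes were 2.53 ± 0.36 (adjusted p = 0.000102) and 4.66 ± 0.35 (adjusted p = 1.53e-07), and it was higher under each scaling tried.

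Cd36 (chr5:17781690-17888801, minus strand), the membrane fatty acid transporter, stood at 236, 338 and 192 in the control, 290.0, 382 and 223 in the FLExD/+, 309, 323 and 300.4 in the moderate and 175, 215 and 229 in the severe mice (CPM). The moderate mice were close to each other inside the range of the controls, and 2 severe mice overlapped it as well. Neither model was called against the controls, at 0.28 ± 0.21 (adjusted p = 0.276) with an interval of -0.17 to 0.73 in the moderate and -0.31 ± 0.21 (adjusted p = 0.2) with an interval of -0.76 to 0.14 in the severe mice, and without control mouse 1246 the moderate value was 0.51 (adjusted p = 0.0422) and called higher. The models differed from each other by -0.59 ± 0.21 (adjusted p = 0.0311), a call lost without any 1 of moderate mice 1236, 1308 and 1331 or severe mice 1047 and 1066, and turned to 0.101 with library size alone. Fabp3 (chr4:130308595-130315463, plus strand), which codes for the fatty acid binding protein of heart and oxidative muscle, spread more, at 119, 310.0 and 105 in the control, 236, 263 and 93.3 in the FLExD/+, 153, 198 and 116 in the moderate and 39.3, 54.7 and 83.3 in the severe mice (CPM). Control mouse 1246 and FLExD/+ mice 1358 and 1367 were far above the rest of their groups, and the severe mice lay below all others. Its fall in the severe mice, -1.59 ± 0.53 (adjusted p = 0.0229), was lost without control mouse 1246 (-0.94 (adjusted p = 0.0972)), without severe mouse 1047 (-1.36 (adjusted p = 0.0937)) and without severe mouse 1066 (-1.54 (adjusted p = 0.0687)). In the moderate mice Fabp3 was at -0.19 ± 0.52 (adjusted p = 0.782), which was not called.

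Cd36, Fabp3 and Lpl are also expressed by cells other than fibers. Summed over their marker lists, adipocyte genes (9 genes) went from 248 to 279 CPM in the controls to 141 to 237 in the moderate and 80.5 to 179 in the severe mice. Of the 9, 2 were called lower in the moderate and 7 in the severe, beside 17.0% and 27.9% of all genes tested. Endothelial genes (9 genes) went from 213 to 249 CPM to 137 to 179 and 90.7 to 113, with 5 and 9 called lower. Fabp4, which is on the adipocyte list and is used by capillaries as well, was at -0.50 (not called) in the moderate mice and fell in the severe by the TMM values, at -0.78 ± 0.18 (adjusted p = 0.0017), and turned to 0.51 with library size alone. The part of these cells in the values of Cd36, Fabp3 and Lpl was not tested.

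Of the oxidation genes, Cpt1b (chr15:89416405-89425863, minus strand), the muscle form of the transferase that gates entry of long-chain fatty acids, was measured at 245, 312 and 235 in the control, 306, 307 and 229.8 in the FLExD/+, 112, 133 and 115 in the moderate and 26.04, 44.1 and 50.9 in the severe mice (CPM). The 3 groups did not overlap, with the moderate mice between the controls and the severe mice. The fall was -1.14 ± 0.21 (adjusted p = 0.000518) in the moderate and -2.71 ± 0.22 (adjusted p = 1.51e-07) in the severe mice, and the models differed by -1.57 ± 0.21 (adjusted p = 6.3e-05) by edgeR. Cpt1b was called lower in all 3 of these comparisons under every scaling and with any mouse left out, with values of -0.53 and -1.42 under library size alone. Its counts carried fractions in all 12 libraries, as did those of Ppargc1a, Esrra, Fabp3 and Lpl, as happens where reads are divided between entries. Which entries shared reads with these genes, and how many reads, was not worked out. The span of Cpt1b lies inside that of Gm44502 (chr15:89416405-89429696) on the same strand.

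Acadm (chr3:153922357-153944632, minus strand), the dehydrogenase of medium chains, was found at 242, 324 and 213 in the control, 326, 336 and 220.3 in the FLExD/+, 243, 223 and 223 in the moderate and 83.6, 132 and 153 in the severe mice (CPM). The moderate mice lay inside the range of the controls and the severe mice below it. The difference was -0.18 ± 0.22 (adjusted p = 0.53) in the moderate mice and -1.08 ± 0.22 (adjusted p = 0.000735) in the severe by TMM, where library size alone gave 0.21 (adjusted p = 0.325). Acadl (chr1:66830839-66863277, minus strand), the dehydrogenase of long chains, was found at 43.8, 73.5 and 37.7 in the control, 73.4, 81.4 and 39.97 in the FLExD/+, 57.1, 60.2 and 51.5 in the moderate and 48.6, 45.6 and 57.1 in the severe mice (CPM), and all 4 groups overlapped. Its 95% intervals against the controls were -0.49 to 0.74 for moderate and -0.65 to 0.58 for severe mice, around values of 0.12 and -0.04 by TMM, which turned to 1.27 (adjusted p = 0.000804) in the severe mice with library size alone. The dehydrogenase of very long chains, Acadvl, went from 234, 381 and 228 CPM in the controls to 139.6, 172 and 138 in the moderate and 50.5, 68.6 and 76.96 in the severe mice. Acadvl changed by -0.91 ± 0.24 (adjusted p = 0.00676) and -2.11 ± 0.25 (adjusted p = 7.11e-06) on the log2 scale, and the short-chain enzyme Acads by -0.75 ± 0.16 (adjusted p = 0.00089) in the severe mice with TMM, against 0.55 with library size alone. For Acadvl library size alone gave -0.30 in the moderate mice, which was not called, and -0.81 in the severe. Thus the 4 dehydrogenases of different chain length did not share a value: severe against control with TMM, they ran from -2.11 for Acadvl to -0.04 for Acadl.

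Hadha (chr5:30118304-30155162, minus strand) was measured at 274, 388 and 249 in the control, 389, 388 and 253 in the FLExD/+, 193, 217 and 192 in the moderate and 93.00, 109.6 and 125 in the severe mice (CPM). The moderate mice lay below the lowest control, and the severe mice below every moderate mouse. It changed by -0.60 ± 0.19 (adjusted p = 0.0158) in the moderate and -1.47 ± 0.19 (adjusted p = 1.02e-05) in the severe mice with TMM, and in the moderate mice the sign was lost with library size alone, at 0.0073. The moderate call was also lost without control mouse 1246 (-0.41 (adjusted p = 0.0637)) or moderate mouse 1236 (-0.57 (adjusted p = 0.0523)). Hadhb, the gene of the beta subunit of the same enzyme, is transcribed away from Hadha on the opposite strand, with 272 bases between the RefSeq starts. The promoter window of Hadha is printed because most of it also lies in the promoter window of Hadhb, and both genes were called lower in both models with TMM. It runs from 250 bases before the RefSeq start to 50 bases after it, at chr5:30154931-30155230 on the minus strand of GRCm38.p6, and the capitals mark the 228 bases that also lie in the same window of Hadhb. The span of Hadha in GENCODE, given above, starts further upstream, at 30155162, so that part of the printed window lies inside that span.
Hadha promoter: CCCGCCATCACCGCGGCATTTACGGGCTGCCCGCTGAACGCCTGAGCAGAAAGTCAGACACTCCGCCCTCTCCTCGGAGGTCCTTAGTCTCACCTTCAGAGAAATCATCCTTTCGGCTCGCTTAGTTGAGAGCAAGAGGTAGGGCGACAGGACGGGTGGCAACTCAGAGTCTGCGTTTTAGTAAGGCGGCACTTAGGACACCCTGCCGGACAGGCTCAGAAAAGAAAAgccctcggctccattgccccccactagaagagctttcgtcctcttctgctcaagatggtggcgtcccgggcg
The window was 58.7% G and C with 20 CpG, beside medians of 52.7% and 7 over 32851 promoter windows of the same length.

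Hadhb lay at 266, 384 and 226 in the control, 362, 379 and 232 in the FLExD/+, 134, 151 and 138 in the moderate and 58.3, 71.7 and 79.5 in the severe mice (CPM) and changed by -1.05 ± 0.21 (adjusted p = 0.000912) in the moderate and -2.06 ± 0.22 (adjusted p = 1.54e-06) in the severe mice. The ratio of Hadhb to Hadha in TPM needs no scaling between libraries. It was 1.446, 1.527 and 1.397 in the controls, 1.443, 1.505 and 1.397 in the FLExD/+, 1.074, 1.066 and 1.104 in the moderate and 0.907, 0.956 and 0.953 in the severe mice. The 6 mice without induction lay above all moderate mice, which lay above all severe mice, so Hadhb was lower relative to Hadha in each model. With 3 mice against 3, an exact two-sided permutation test cannot give a p under 0.10, and this ratio was chosen after its values were seen.

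The isoforms of carnitine palmitoyltransferase moved in opposite directions. Cpt1a, the form of liver and most other tissues, rose where Cpt1b fell, at 6.01, 7.71 and 6.16 in the control, 5.46, 5.75 and 5.98 in the FLExD/+, 21.99, 18.2 and 15.8 in the moderate and 45.04, 40.99 and 41.9 in the severe mice (CPM), a log2 fold change of 1.49 ± 0.13 (adjusted p = 3.56e-07) in the moderate and 2.68 ± 0.13 (adjusted p = 3.98e-10) in the severe mice. Cpt1a was higher under each scaling. In TPM, Cpt1a made up 1.58% to 1.66% of the sum of both isoforms in the controls and 1.21% to 1.71% in the FLExD/+ mice. It made up 7.68% to 10.9% in the moderate and 33.4% to 50.6% in the severe mice, so that the transcripts were near equal in severe mouse 1047. The rise in macrophage and regenerating muscle genes given above moved with this share, and their part in it was not tested.

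**Figure D2:**
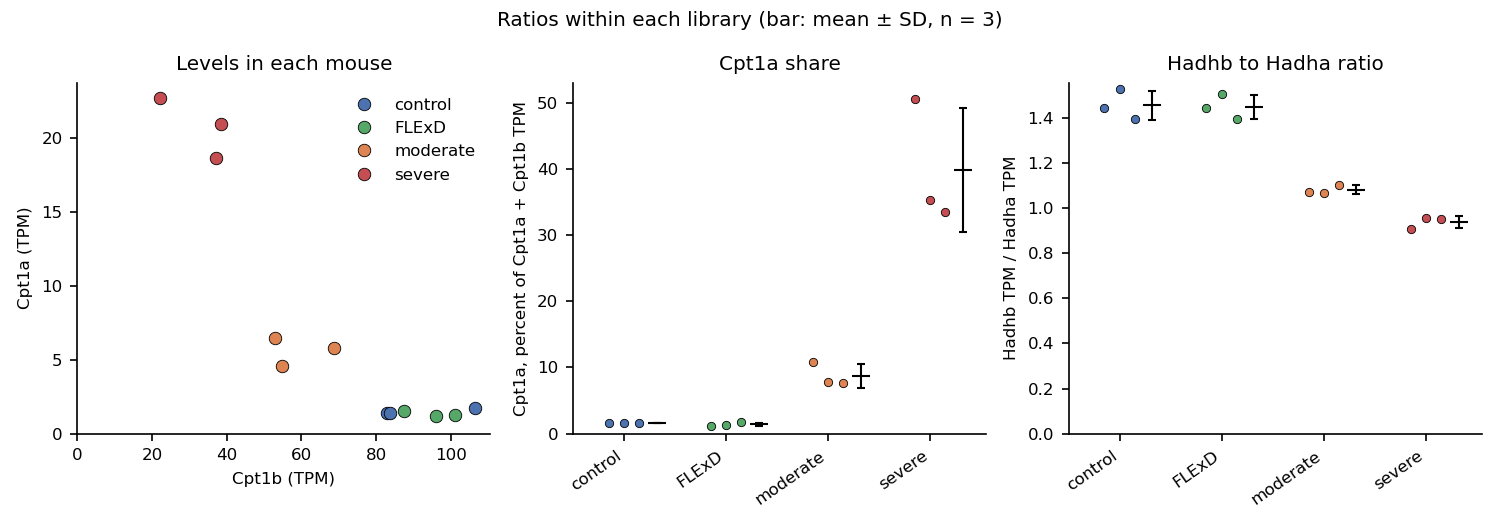
Left, Cpt1a against Cpt1b in TPM, 1 point per mouse; middle, Cpt1a as a percentage of Cpt1a plus Cpt1b TPM; right, Hadhb TPM over Hadha TPM, with bars for mean ± SD of 3 mice. The Cpt1a share reached 50.6% in severe mouse 1047, and the Hadhb to Hadha ratio went from between 1.397 and 1.527 in the controls to between 0.907 and 0.956 in the severe mice.

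The FLExD/+ mice carried the DUX4 transgene without Cre, and the controls carried Cre without the DUX4 transgene. Their comparison therefore cannot isolate the effect of either transgene. Between them none of the 10 was called, and 0.00600% of all genes tested (1 gene) were. Log2 fold changes ran from 0.06 for Ppargc1a to 0.41 for Lpl, all above 0, with an adjusted p of 1 for each by edgeR and all groups overlapping. The intervals were wide for some, from -1.03 to 1.32 for Fabp3, and narrow for others, from -0.26 to 0.38 for Ppargc1a. The control and FLExD/+ groups varied in the same manner: control mouse 1246 was the highest control in all 10 genes, and FLExD/+ mouse 1378 the lowest of its group in all 10. The same mice stood apart in 6 genes of slow fibers (Myh7, Myl2, Myl3, Tnnc1, Tnnt1 and Tnni1, a list chosen after the values were seen). These summed to 2225 CPM in control mouse 1246 against 1049 and 392 in mice 1127 and 1349, and to 546 CPM in FLExD/+ mouse 1378 against 2527 and 2267 in mice 1358 and 1367. They summed to 191 to 571 CPM in the moderate and 180 to 315 in the severe mice. There 2 and 3 of the 6 were called lower, beside 17.0% and 27.9% of all genes tested, and the list medians were -1.76 and -4.00. The part of this in the values of the 10 genes was not tested. With the slow-fiber level of each mouse within its group as a covariate, an alternative chosen after seeing the data, 4 of the 10 genes were called lower in the moderate mice, 7 in the severe mice and 9 between the models, which leaves the difference in slow-fiber level between groups as it was. Over the controls the coefficient of variation ran from 12.2% for Ppargc1a to 68.0% for Ppara, and over the moderate mice from 3.60% for Cd36 to 26.7% for Fabp3.

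**Figure D3:**
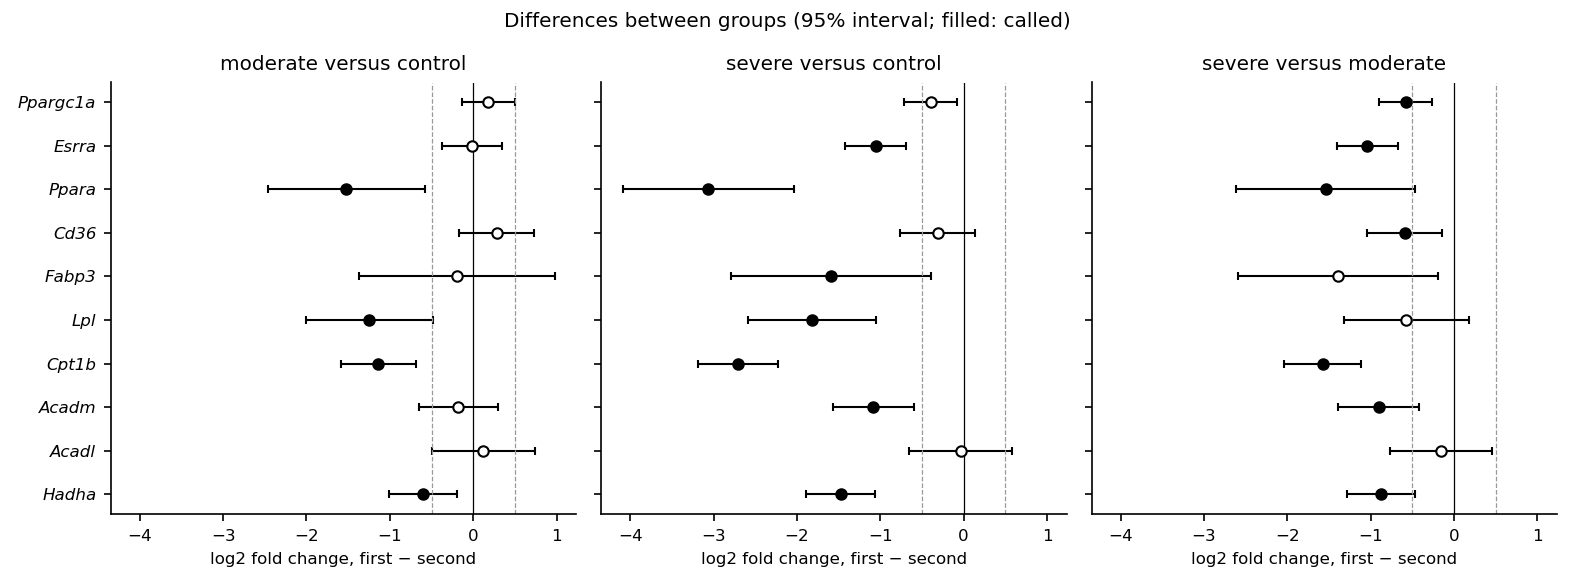
Log2 fold changes of the 10 genes with 95% intervals from edgeR, for moderate and severe against control and for severe against moderate. Filled points were called, dashed lines mark the fold threshold of 0.5; Cpt1b was called in each panel and Acadl in none.

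How the libraries were scaled decided the direction of part of the set. The 10 adult myofiber genes took 11.2% to 14.9% of all counts in the controls, 7.51% to 8.52% in moderate and 1.85% to 3.16% in severe mice, and the TMM factors were 0.706 to 0.724, 1.06 to 1.13 and 1.70 to 1.87. With library size alone the median of all genes tested stood at 0.65 in the moderate and 1.39 in the severe mice, and with limma on log2(TPM + 1) at 0.29 and 0.79. Read against those medians, all 10 genes lay below the median gene in the severe mice with TMM and with library size alone, the latter with Acadl (1.27) nearest to it. With limma on TPM 7 of them did, and Ppargc1a (0.91), Cd36 (0.93) and Acadl (1.199) lay above it. Signs against the controls held in the severe mice for Ppara, Fabp3, Lpl, Cpt1b and Hadha under each scaling and turned for Ppargc1a, Esrra, Cd36, Acadm and Acadl with library size alone and with limma on TPM.

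**Figure D4:**
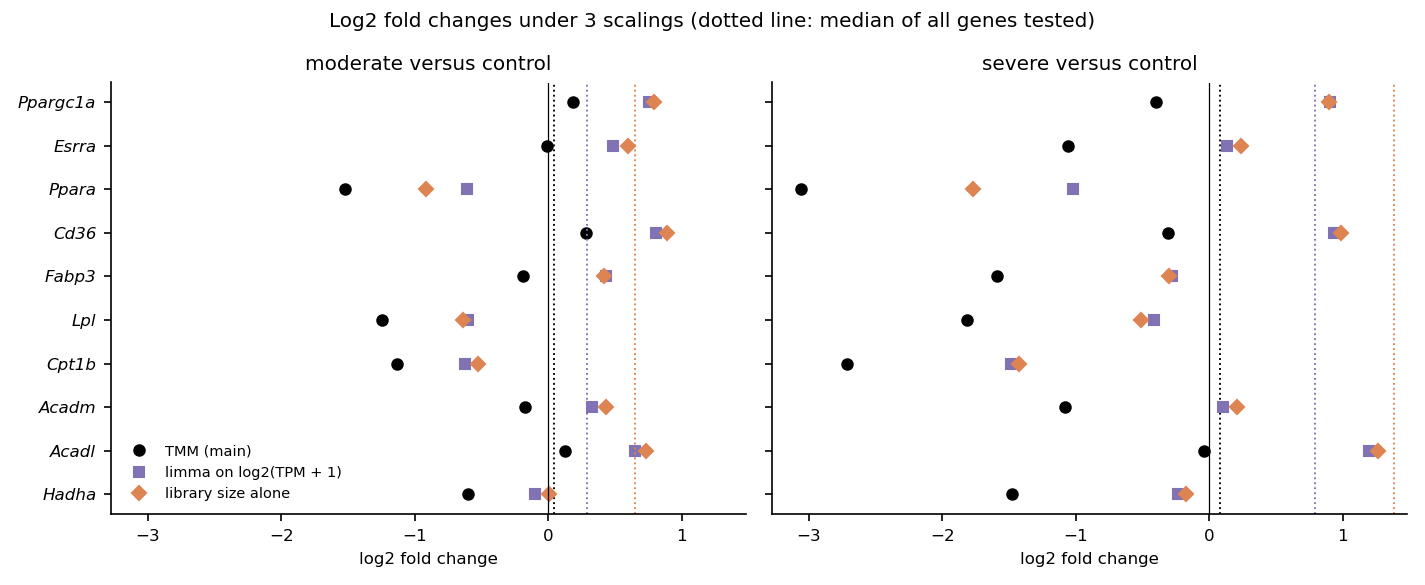
Log2 fold change of each gene against the controls under TMM, limma on log2(TPM + 1) and library size alone; dotted lines give the median of all 16679 genes tested in the same colour. In the severe mice the median moved from 0.08 to 0.79 and 1.39, and Cpt1b and Ppara stayed below 0 in each.

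Levels can be compared between genes in TPM. In the controls the order was Fabp3 (219 ± 138), Acadm (131 ± 26.1), Hadha (99.4 ± 22.5), Cd36 (96.3 ± 26.2), Cpt1b (91.0 ± 13.3), Lpl (75.1 ± 35.4), Esrra (37.4 ± 5.28), Acadl (31.8 ± 11.4), Ppargc1a (7.21 ± 1.02) and Ppara (3.42 ± 2.21; SD, n = 3). Neighbours from Fabp3 to Lpl overlapped, as did Esrra and Acadl, whereas Lpl lay above Esrra, Acadl above Ppargc1a and Ppargc1a above Ppara in all controls. Among severe mice Cd36 came first at 181 ± 20.9 TPM, before Fabp3 at 165 ± 49.01 and Acadm at 142 ± 35.8, and these 3 overlapped. Acadl stood at rank 5 with 71.6 ± 2.61 TPM and Cpt1b at rank 8 with 32.5 ± 9.001 TPM, so that Acadl exceeded Cpt1b in every severe mouse and lay below it in every control.

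Measured against 10 adult myofiber transcripts, which fell more, the 10 genes went the other way. This is a comparison between transcripts and gives no level per fiber. For each mouse the mean log2 level of the 10 adult myofiber genes was taken from the log2 level of each gene, a quantity that needs no scaling between libraries. On average this difference was higher in the severe than in the control mice for all 10 genes, by 1.02 for Ppara and 1.10 for Cpt1b up to 3.57 for Cd36 and 3.87 for Acadl on the log2 scale, and by 3.44 for Ppargc1a. For Ppara the severe mice overlapped the controls. In the moderate mice the mean difference was higher by 0.11 for Ppara, 0.29 for Lpl and 0.30 for Cpt1b up to 1.75 for Cd36. The moderate mice lay inside the range of the controls for Ppara and Lpl and overlapped it for Cpt1b and Fabp3. The 10 myofiber genes had a median log2 fold change of -1.44 in the moderate mice, with 8 called lower, and -3.68 in the severe mice, with all 10 called lower, and no test was made of the difference from the set.

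The genes around the set were grouped into lists of 117 genes in all, which hold none of the 10. The shares of all genes beside which their counts stand are 17.0% lower and 24.4% higher in the moderate and 27.9% lower and 32.9% higher in the severe mice with TMM, and 4.51% and 52.5%, then 6.42% and 75.4%, with library size alone. Of 21 further genes of mitochondrial beta-oxidation, 12 were called lower in the moderate and 19 in the severe mice and none higher, with list medians of -0.67 and -1.44, whereas library size alone gave 4 lower and 4 higher in the moderate mice, with a median of -0.06, and 9 lower and 6 higher in the severe. The enoyl-CoA isomerase Eci1 changed by -1.42 ± 0.18 (adjusted p = 2.18e-05) and -2.59 ± 0.19 (adjusted p = 4.47e-08), and Acad11, a further acyl-CoA dehydrogenase, by -1.10 and -2.29. Of 9 genes of the carnitine shuttle and its malonyl-CoA control, 6 were called lower and 1 higher in the moderate mice, and 7 lower and 2 higher in the severe with TMM, against 0 lower and 2 higher, then 2 lower and 3 higher, with library size alone. Acacb, whose product makes the malonyl-CoA that inhibits the transferase, fell from 171, 189.7 and 151 CPM in the controls to 20.8, 28.6 and 29.8 in the severe mice (-2.69 ± 0.15 (adjusted p = 1.29e-09)). Carnitine acetyltransferase Crat was at -0.94 and -2.32, Cpt2 at -0.76 and -1.49, and the translocase Slc25a20 at -0.55 and -1.18 with TMM, the last turning to 0.059 and 0.12 with library size alone. With TMM all these differences were called, but that of Slc25a20 in the moderate mice was lost without any 1 of control mouse 1246 (-0.39 (adjusted p = 0.0737)) and moderate mice 1236 and 1331. Library size alone gave -0.33 for Crat and -0.15 for Cpt2 in the moderate mice, and neither was called. With limma on log2(TPM + 1) Cpt2 was at -0.15 in the severe mice and not called.

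Peroxisomal oxidation, which shortens the longest chains, was divided. Of 10 genes, 4 were called lower and 2 higher in the moderate mice, and 7 lower and 2 higher in the severe mice with TMM, where library size alone gave 2 lower and 2 higher, then 1 lower and 5 higher. The oxidase Acox3 went from 20.00, 17.5 and 18.3 CPM in the controls to 114, 125 and 118 in the moderate and back to 35.7, 60.8 and 53.2 in the severe mice. The carnitine octanoyltransferase Crot followed the same course, from 58.7, 48.3 and 59.3 to 253, 222 and 282 and 95.6, 150.4 and 163 CPM. Both exceeded the controls in the moderate model (2.68 ± 0.15 (adjusted p = 1.38e-08) for Acox3 and 2.19 ± 0.17 (adjusted p = 2.76e-07) for Crot) and were lower in the severe model than in the moderate (-1.26 ± 0.14 (adjusted p = 1.32e-05) and -0.89 ± 0.17 (adjusted p = 0.000659)) with TMM. Against the controls, library size alone gave 3.29 and 2.72 for Acox3 in the moderate and severe mice. For Crot it gave 2.79 and 2.59, so that the later drop was smaller. The transporter Abcd2 changed by -2.41 ± 0.13 (adjusted p = 1.18e-09) and the bifunctional enzyme Ehhadh by -1.54 ± 0.15 (adjusted p = 5.5e-07) in the severe mice with TMM. With limma on log2(TPM + 1) Ehhadh was at -0.23 in these mice and not called.

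Of 14 further genes of uptake and activation, 5 were called higher in the moderate mice and 2 lower, and 4 higher and 6 lower in the severe with TMM, where library size alone gave 6 higher and 1 lower, then 10 higher and 1 lower. The severe counts with TMM, 4 and 6 of 14, stand beside 32.9% and 27.9% of all genes. Fabp5, a binding protein of skin and macrophages, rose from 4.66, 5.11 and 3.13 CPM in the controls to 58.2, 41.7 and 44.5 in the severe mice (3.49 ± 0.19 (adjusted p = 2.97e-09)), and the acyl-CoA synthetase Acsl3 by 1.96 ± 0.16 (adjusted p = 2.57e-07) in the moderate mice. The transporter Slc27a1 and the receptor Vldlr fell, at -1.52 ± 0.24 (adjusted p = 0.000119) and -2.38 ± 0.18 (adjusted p = 4.3e-08) in the severe mice with TMM. With limma on log2(TPM + 1) Slc27a1 was at -0.16 in these mice and not called. Acsl1, the main synthetase of muscle, was at -0.16 ± 0.21 (adjusted p = 0.538) in the moderate mice and changed by -1.34 ± 0.21 (adjusted p = 7.46e-05) in the severe with TMM. Library size alone gave -0.05 for Acsl1 in the severe mice, which was not called. Of 14 genes of triglyceride storage and lipolysis, 8 were called lower and 1 higher in the moderate mice, and 11 lower and 2 higher in the severe with TMM, where library size alone gave 3 lower and 3 higher, then 5 lower and 3 higher. The acyltransferase Dgat2 (-3.62 ± 0.48 (adjusted p = 8.94e-05)), the lipid droplet protein Plin5 (-3.21 ± 0.53 (adjusted p = 0.000282)) and the phosphatidate phosphatase Lpin1 (-2.78 ± 0.18 (adjusted p = 9.78e-09)) had the largest falls of the list in the severe mice, whereas the droplet proteins Plin2 (1.46 ± 0.13 (adjusted p = 1.12e-07)) and Plin3 (0.56 ± 0.21 (adjusted p = 0.029)) rose. The call of Plin3 was lost without any 1 of control mice 1127 and 1349 and severe mice 1066 and 1079, with values down to 0.402 (adjusted p = 0.123).

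Of 20 further regulators and energy sensors, 7 were called lower and 1 higher in the moderate mice, and 11 lower and 1 higher in the severe with TMM, where library size alone gave 3 lower and 6 higher, then 4 lower and 9 higher. Perm1, a muscle regulator that acts with PGC-1 alpha and ERR, had the largest fall of the list, from 113, 166 and 91.5 CPM in the controls to 36.00, 56.3 and 38.3 in the moderate and 2.71, 5.26 and 4.73 in the severe mice (-4.87 ± 0.35 (adjusted p = 2.74e-07)). Tfeb, a regulator of lysosomes and lipid breakdown, changed by -2.75 ± 0.13 (adjusted p = 3.98e-10) and Prkaa2, the AMPK subunit of muscle, by -2.36 ± 0.16 (adjusted p = 1.15e-08). Ppargc1b, the paralog of Ppargc1a, changed by -0.60 and -0.74 in the 2 models with TMM, both called, and turned to 0.013 and 0.57 with library size alone, while Pprc1, the third coactivator, was higher in the severe mice (0.62 ± 0.21 (adjusted p = 0.0151)). The call of Ppargc1b in the moderate mice was lost without control mouse 1127, at -0.47 (adjusted p = 0.0476), and that of Pprc1 without control mouse 1246, at 0.51 (adjusted p = 0.0714), or severe mouse 1047, at 0.35 (adjusted p = 0.0885).

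Of 11 genes known to respond to PPAR or PGC-1 alpha, 4 were called lower and 2 higher in the moderate mice, and 6 lower and 2 higher in the severe with TMM, where library size alone gave 0 lower and 2 higher, then 1 lower and 4 higher. Myoglobin (Mb) fell from 895, 1752 and 566 CPM in the controls to 33.1, 38.6 and 66.5 in the severe mice (-4.54 ± 0.61 (adjusted p = 7.34e-05)), and its controls followed the slow-fiber order given above. The uncoupling protein gene Ucp2, which macrophages also express, rose by 3.75 ± 0.16 (adjusted p = 1.55e-10), and the droplet protein gene Cidea went from 0.052, 0.5299 and 0.237 CPM to 6.53, 6.97 and 6.200 in the moderate mice (4.54 ± 0.48 (adjusted p = 4.91e-06)). Control mouse 1127 held 1 count of Cidea, under the floor of 3, and the log2 fold change ran from 4.06 to 5.398 with 1 control left out. Pdk4, whose kinase spares glucose when fat is used, was called in neither model, at -0.35 ± 0.48 (adjusted p = 0.578) and -0.89 ± 0.49 (adjusted p = 0.129). For comparison, all 18 genes of the tricarboxylic acid cycle were called lower in the severe and 14 in the moderate mice, with medians of -1.83 and -0.65, and 8 in the severe but 1 in the moderate mice with library size alone.

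**Figure D5:**
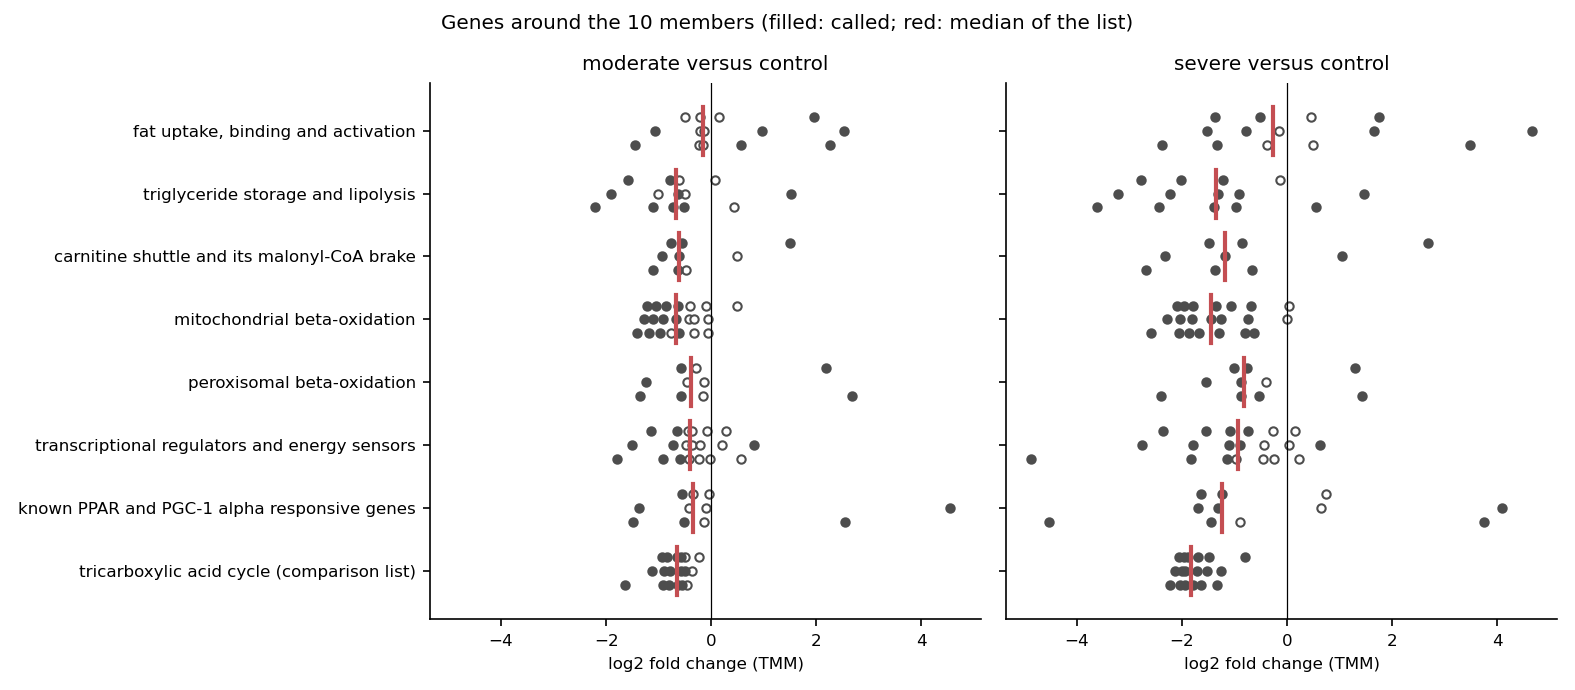
Log2 fold change (TMM) of each gene on 8 lists around the set, for moderate and severe against control; filled points were called and red bars are list medians. The medians of mitochondrial beta-oxidation stood at -0.67 and -1.44, and those of the tricarboxylic acid cycle at -0.65 and -1.83.

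RefSeq promoter windows were found for 8 of the 10 genes, all but Cpt1b and Lpl. The windows were searched on both strands for the element of estrogen-related receptors, TNAAGGTCA, and for the direct repeat of AGGTCA spaced by 1 base, to which PPAR binds. The letters AGGTCA belong to both motifs. None of the 8 windows held the first, which 1.28% of all 32851 windows did, or the second, held by 0.0396% of all and by 0.554% with 1 mismatch allowed. No match says only that these letters were not in these windows.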

How the data were processed

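Gastrocnemius RNA of 12 mice was sequenced by the authors as single-end poly(A) libraries, 1 per mouse, and the description of library making names no strand marking. To obtain expected counts, the authors trimmed reads, ran RSEM 1.2.4 calling Bowtie on a merged UCSC, Ensembl and MISO annotation of mm10, and gave unaligned reads to TopHat2 2.0.8b, and the counts were deposited unscaled. TPM from the same estimates were deposited as well, scaled to the same total in each library. Most entries with 0 counts had a TPM above 0 (164142 of 164417), so TPM were used after adding 1 or 0.1.

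Here, counts were rounded and fitted with edgeR 4.0.16 in R 4.3.3 (filterByExpr, TMM, robust quasi-likelihood F-test), with all 4 groups in 1 fit and p adjusted by Benjamini-Hochberg over 16679 genes. Standard errors came from the F statistic. The depth of 23796902 to 29136403 counts puts 3 counts at 0.0676 to 0.155 CPM, which covers counting error only. Groups were taken from the sample labels, and nothing beyond mouse numbers says how the mice were bred or batched. The labels do not give the sex of the mice. The paper reports that severity differs between the sexes, and whether sex differed between the groups could not be checked. The 10 genes, the wider lists and the marker lists were chosen with earlier results of these data known, and the slow-fiber list after its values were seen. Text names all 10 genes, up to 3 called genes per direction and list with the largest severe change, and direct family partners. Perm1 was matched by gene ID, as were Adgre1, Mymk and Mymx of the marker lists. Tests were tried on simulated counts first. Positions are from GENCODE M21 (GRCm38), promoters from RefSeq on GRCm38.p6. Alternatives were library size alone, median-of-ratios factors, DESeq2 1.42.0, limma 3.58.1 on TPM, other filters and thresholds, 2-group fits, scaling without mitochondrial transcripts and each mouse left out. Plots used matplotlib 3.10.9 (Python 3.11.15).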

Additional observations from a re-analysis of the deposited data

How the results depend on the processing

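The call, or its absence, stayed as reported for the 10 genes in 658 of 760 pairs of a comparison and an alternative. A call was lost in 59 and gained in 18, and in 25 the sign turned where the gene was called in either setting. The 658 include pairs called in neither setting, where a turn of sign was not counted. Pairs of FLExD/+ against control, where no gene was called, are among them. The counts of genes called moved with the scaling and with the thresholds. With library size alone, 4 were higher and 1 lower in the moderate mice, 3 higher and 2 lower in the severe mice, and 1 lower between the models. Between the models 57.8% of all genes were then called higher and 4.93% lower. With limma on log2(TPM + 1), and likewise with 0.1 added, 3 were higher and 1 lower in the moderate mice, 3 higher and 2 lower in the severe, and 1 higher and 1 lower between the models. With limma and 1 added, 31.5% of all genes were higher for moderate mice and 4.42% lower, and 64.1% and 5.92% for severe mice. An absolute log2 fold change of 1 or more left 3 lower between the models (8.34% of all genes), and an adjusted p under 0.01 left 1 lower in the moderate mice (14.5% of all genes). Leaving out 1 mouse at a time gave 0 to 1 higher and 3 to 4 lower in the moderate mice, 6 to 7 lower in the severe and 4 to 6 lower between the models.

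The turns that follow are those of values called with TMM or under the alternative. With library size alone log2 fold changes turned above 0 for moderate against control in Esrra (0.59), Hadha (0.0073), Cycs (0.051), Ppargc1b (0.013), Slc25a20 (0.059) and Acads (0.55). They also turned for severe against control in Ppargc1a (0.901), Esrra (0.24), Cd36 (0.99), Acadm (0.21), Acadl (1.27), Abcd3 (0.29), Ppargc1b (0.57), Ppard (0.21), Slc25a20 (0.12), Acads (0.55) and Fabp4 (0.51). They also turned for severe against moderate in Ppargc1a (0.11) and Cd36 (0.101). With limma on log2(TPM + 1) log2 fold changes turned above 0 for severe against control in Ppargc1a (0.91), Esrra (0.13), Cd36 (0.93), Acadm (0.104), Acadl (1.199), Abcd3 (0.203), Ppargc1b (0.44), Ppard (0.17), Slc25a20 (0.035), Acads (0.46) and Fabp4 (0.39). They also turned for severe against moderate in Ppargc1a (0.16), Cd36 (0.12) and Acadl (0.55). With limma on log2(TPM + 0.1) log2 fold changes turned above 0 for severe against control in Ppargc1a (0.99), Esrra (0.14), Cd36 (0.94), Acadm (0.104), Acadl (1.22), Abcd3 (0.21), Ppargc1b (0.55), Ppard (0.21), Slc25a20 (0.037), Acads (0.48) and Fabp4 (0.39). They also turned for severe against moderate in Ppargc1a (0.17), Cd36 (0.12) and Acadl (0.56). Called or not, 7 of the 10 genes lay below 0 for moderate against control with TMM, 3 with library size alone and 4 with limma and 1 added. For severe against control these numbers were 10, 5 and 5, and for severe against moderate 10, 6 and 6.

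The cause of these turns was not tested beyond the medians of all genes given above, which the same settings moved. No paired analysis was possible because mouse numbers are not shared between groups. With 3 mice per group, small differences such as that of Acadl cannot be told from none, and Ppara rests on the lowest counts of the set. Median-of-ratios factors, DESeq2, 2-group fits and scaling without mitochondrial transcripts left the member counts within 1.5 times of those reported.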

Other observations

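The profile of Ppargc1a over the 12 mice was compared with those of 12316 genes with a mean of at least 50 counts, as the mean absolute difference of log2 CPM after the control mean was taken from each. The nearest were Ly6c1 (0.0807), an antigen of endothelium and of some blood cells, Jmjd4 (0.086), a lysyl hydroxylase, and Dusp19 (0.101), a phosphatase. Log2 fold changes against the controls, moderate then severe, were 0.14 and -0.33 for Ly6c1, 0.04 and -0.34 for Jmjd4 and 0.18 and -0.499 for Dusp19, beside 0.18 and -0.40 for Ppargc1a.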
